A study of Homo sapiens with 4 samples.

Results

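OLR1 and 7 other scavenger receptor genes (SCARB1, CD36, LRP1, CXCL16, SCARA3, SCARF1 and MSR1) were followed in laryngeal squamous cell carcinoma (LSCC) cells in which SKA3, a subunit of the spindle and kinetochore-associated complex, had been knocked down. The 8 genes were taken by name from a table of 28729 genes. They were chosen by the FPKM values of OLR1 in these libraries, which gave one of the largest rises after the knockdown, so the member values in this contrast are given as a description. All cells were of the established LSCC line TU-177, grown in DMEM with 10% fetal bovine serum. They received a lentivirus with a negative-control shRNA (NC) or with an shRNA to SKA3 (SKA3-KD), puromycin was added at 48 h, and the surviving cells were sequenced, with 2 libraries in each of the 2 groups. Both groups therefore carry a lentivirus and puromycin selection. The cells are described as resistant cells, and whether they are 1 clone is not stated. The study's methods also describe knockdown of SKA3 by siRNA and, in the supplement, by sgRNA with Cas9, and the labels of these libraries name the shRNA. Nothing says that the libraries of a group came from separate cultures, so p-values measure only the spread between these libraries, which may be technical.

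Scavenger receptors are cell-surface proteins of unrelated folds that bind modified lipoproteins and many other polyanionic ligands, and most of them carry their cargo into endosomes. They are best known from macrophages and endothelium, where uptake of oxidised low-density lipoprotein (LDL) fills cells with cholesterol esters. Epithelial cells and carcinomas also express some of them. OLR1 encodes LOX-1, a C-type lectin-like receptor for oxidised LDL, and SCARB1 encodes the receptor that takes cholesterol esters from high-density lipoprotein.

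Levels are given as FPKM (fragments per kilobase, scaled to library size), a unit per length, so that levels of different genes can be set side by side. The library sizes, inferred from the steps of the FPKM values, were between 9015056 and 11966130 reads. At these sizes 1 read on 1 kb was worth 0.0836 to 0.111 FPKM. Read counts given below were recovered from the same steps. SKA3 itself was at 9.40 and 9.64 FPKM in the NC libraries and at 3.77 and 4.12 FPKM in the SKA3-KD libraries, a log2 fold change of -1.09. Of the squamous keratins, KRT5, KRT14 and KRT6A had at most 4 reads in any library, and the squamous transcription factor TP63 was between 0.348 and 0.580 FPKM. The simple-epithelial keratin KRT8 was at 430 to 453 FPKM and KRT18 at 31.1 to 39.2 FPKM. Of the other epithelial markers listed, KRT17, a basal keratin, was at 29.4 to 49.1 FPKM. SFN, the epithelial 14-3-3 sigma, was at 133 to 155 FPKM and EPCAM at 2.73 to 2.95 FPKM. CDH1 was at 0.149 to 0.447 FPKM and PKP1 at 0.0179 to 0.0942 FPKM. The defining markers of the labelled cell type were thus present only in part. Fold changes are on the log2(FPKM + 1) scale, which understates the change of low genes, and were fitted by limma across the 12645 genes whose mean reached 1 FPKM, with Benjamini-Hochberg adjustment over all of them and a threshold of 0.05.

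OLR1 was the member with the largest difference. It was at 10.8 and 11.6 FPKM in NC 1 and NC 2, and at 38.8 and 31.4 FPKM in SKA3-KD 1 and SKA3-KD 2. Both SKA3-KD libraries were far above both NC libraries, and the first of them was the higher. The means were 11.2 ± 0.569 FPKM (SD, n = 2) in NC and 35.1 ± 5.19 FPKM (SD, n = 2) in SKA3-KD, a ratio of 3.14, and the log2 fold change was 1.56 (SE 0.11). These values rest on 394, 319, 1206 and 1133 reads. In bulk libraries such as these, more cells with OLR1 RNA and more OLR1 RNA per cell cannot be told apart.

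The OLR1 rise stood 10th in size among the 12645 genes tested, at percentile 99.9 of the fold changes. Most of the genes above it had few reads. Among the 11434 genes whose mean reached 20 reads it stood 2nd, after NT5E, the ecto-nucleotidase CD73, with a log2 fold change of 1.93. The genes just below it were AXL, a receptor tyrosine kinase, at 1.42 and MZT1, a gamma-tubulin complex component, at 1.38. By level, OLR1 lay at percentile 66.1 of the genes tested in NC cells, a gene of middling abundance before the knockdown.

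**Figure D1:**
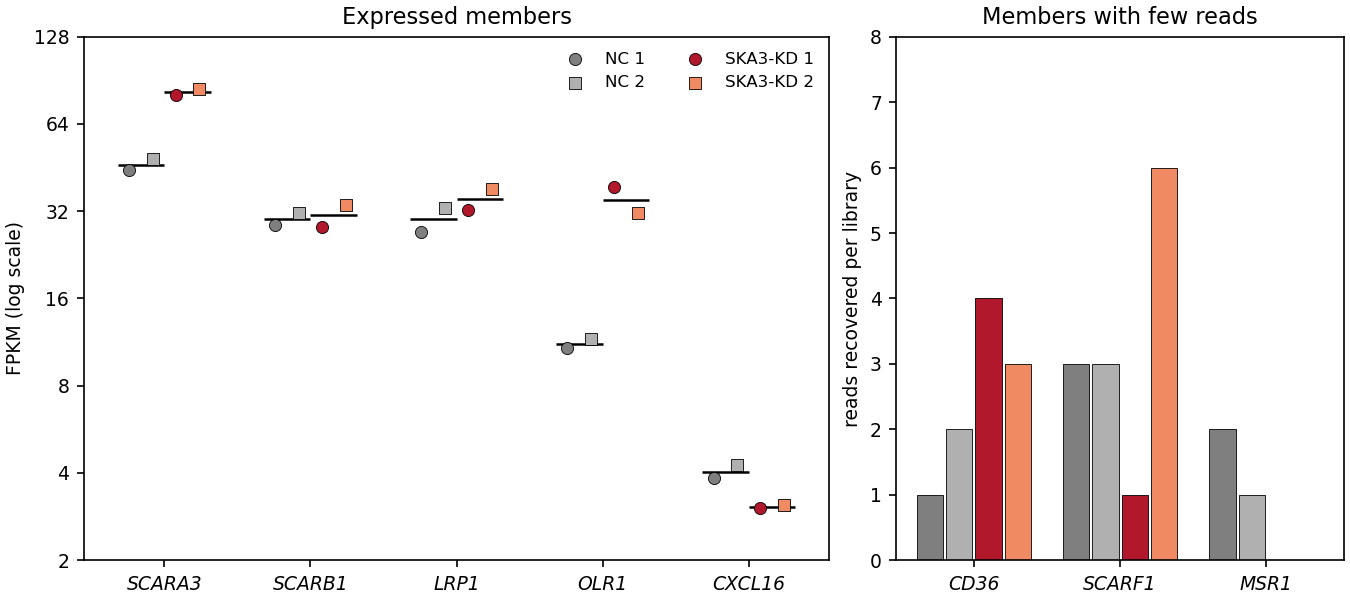
Left, FPKM of the 5 expressed members in each library on a log axis, with NC libraries in grey, SKA3-KD libraries in red and orange, and bars at the group means. Right, reads of the 3 low members in each library. OLR1 moved from 10.8 and 11.6 FPKM to 38.8 and 31.4 FPKM and SCARA3 from 44.3 and 48.4 FPKM to 80.6 and 84.2 FPKM, the groups of SCARB1 and LRP1 overlapped, and CXCL16 was slightly lower in SKA3-KD.

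SCARA3, a class A scavenger receptor-like protein known from the response to oxidative stress, was the other member that was higher. It was at 44.3 and 48.4 FPKM in NC and at 80.6 and 84.2 FPKM in SKA3-KD. The groups did not overlap, and the 2 libraries of each group lay close together. The means were 46.4 ± 2.89 and 82.4 ± 2.55 FPKM (SD, n = 2 each), a ratio of 1.78 and a log2 fold change of 0.82 (SE 0.07), at percentile 99.1. SCARA3 was the most abundant member in every library, so its gain of FPKM was larger than that of OLR1 although its ratio was smaller.

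SCARB1, the class B receptor for high-density lipoprotein, was at 28.7 and 31.6 FPKM in NC and at 28.2 and 33.7 FPKM in SKA3-KD. Its groups overlapped fully, and the log2 fold change was 0.03 (SE 0.10). LRP1, a large endocytic receptor that clears protease-inhibitor complexes and remnant lipoproteins, was at 27.2 and 32.8 FPKM in NC and at 32.2 and 38.3 FPKM in SKA3-KD. The upper NC library exceeded the lower SKA3-KD library, and the log2 fold change was 0.23 (SE 0.13). It ranged from 0.094 (without NC 1) and 0.11 (without SKA3-KD 2) to 0.35 (without SKA3-KD 1) and 0.36 (without NC 2), and LRP1 was past the threshold with a replicate block (0.23) and by limma voom on recovered reads (0.24).

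CXCL16, a transmembrane chemokine that also binds oxidised LDL and phosphatidylserine, was the expressed member with the lowest level. It was at 3.83 and 4.25 FPKM in NC and at 3.02 and 3.10 FPKM in SKA3-KD, from 128, 107, 86 and 102 reads. Both SKA3-KD libraries lay below both NC libraries, with a log2 fold change of -0.31 (SE 0.09) that was not past the threshold.

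CD36, the class B receptor for long-chain fatty acids, oxidised LDL and thrombospondin, had 1 and 2 reads in NC and 4 and 3 reads in SKA3-KD. The ratio of its summed reads per library size, SKA3-KD over NC, was 2.23 with an exact 95% interval of 0.509 to 13.4. SCARF1, a class F receptor that binds acetylated LDL and apoptotic cells, had 3 and 3 reads in NC and 1 and 6 reads in SKA3-KD, a ratio of 1.11 (0.321 to 4.01). MSR1, the macrophage class A receptor, had 2 reads and 1 read in NC and was listed at 0 in both SKA3-KD libraries, where a count of 0 allows up to 0.0377 and 0.0326 FPKM (3 reads per library). These intervals and limits cover counting error only. A difference between the groups was not detectable at this depth for any of the 3 genes.

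Of the 8 members, 5 reached a mean of 1 FPKM and were tested, and the other 3 were not. OLR1 and SCARA3 were higher in SKA3-KD and past the threshold, 0 were lower past it, and 3 were not past it, of which LRP1 was past it in the 2 other fits just named. Over all genes tested, 12.3% were past the threshold, 6.16% higher and 6.11% lower. The groups did not overlap for 3 of the 5 members (OLR1 and SCARA3 higher, CXCL16 lower) and for 61.6% of all genes tested, 32.3% higher and 29.2% lower. Since the rule used this contrast, nothing is read from these counts. The 5 fold changes had a median of 0.23, beside a median of 0.01 over all genes tested. Without NC 1, neither OLR1 (1.51) nor SCARA3 (0.75) was past the threshold, and SCARA3 was also not past it without SKA3-KD 1 (0.85) or without SKA3-KD 2 (0.79).

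**Figure D2:**
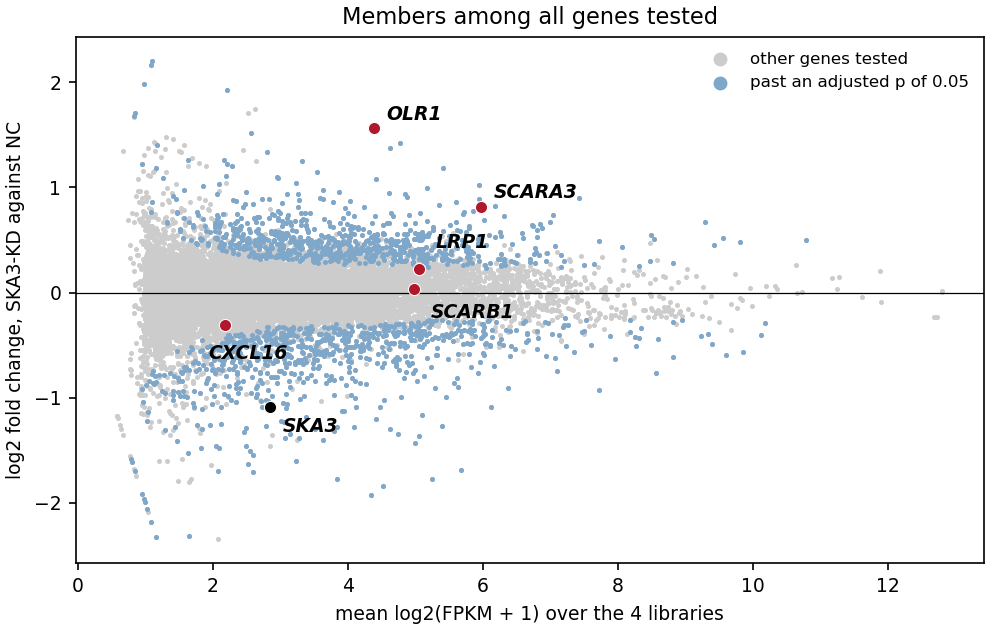
Log2 fold change of SKA3-KD against NC (vertical) against the mean log2(FPKM + 1) over the 4 libraries (horizontal) for the 12645 genes tested, with genes past an adjusted p of 0.05 in blue. The 5 tested members are in red and SKA3 in black. OLR1 (1.56) and SCARA3 (0.82) lie near the upper edge of genes of their abundance, and SCARB1 (0.03), LRP1 (0.23) and CXCL16 (-0.31) lie within the main body.

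The difference in OLR1 changed its place among the receptors. In NC cells the order of levels was SCARA3, then SCARB1 and LRP1, whose ranges overlapped, then OLR1, then CXCL16. In SKA3-KD cells SCARA3 remained first and CXCL16 last, and OLR1 had joined SCARB1 and LRP1, with ranges that overlapped among these 3 genes. The ratio of OLR1 to SCARB1 FPKM was 0.376 and 0.366 in the NC libraries and 1.37 and 0.932 in the SKA3-KD libraries. Against CXCL16, the OLR1 level was 2.82 and 2.73 times as high in NC and 12.8 and 10.2 times as high in SKA3-KD. The lead of SCARA3 over OLR1 narrowed from ratios of 4.11 and 4.18 to ratios of 2.08 and 2.68.

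Added up, the 8 members came to 114.9 and 128.8 FPKM in NC and to 182.9 and 190.9 FPKM in SKA3-KD. OLR1 made up 9.38% and 8.99% of the sum in NC and 21.2% and 16.5% in SKA3-KD. SCARA3 went from 38.6% and 37.6% to 44.1% in each SKA3-KD library. The share of SCARB1 was 25.0% and 24.6% in NC and 15.4% and 17.7% in SKA3-KD, although its own level overlapped between the groups. Most of the larger sum was thus SCARA3 and OLR1 RNA.

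**Figure D3:**
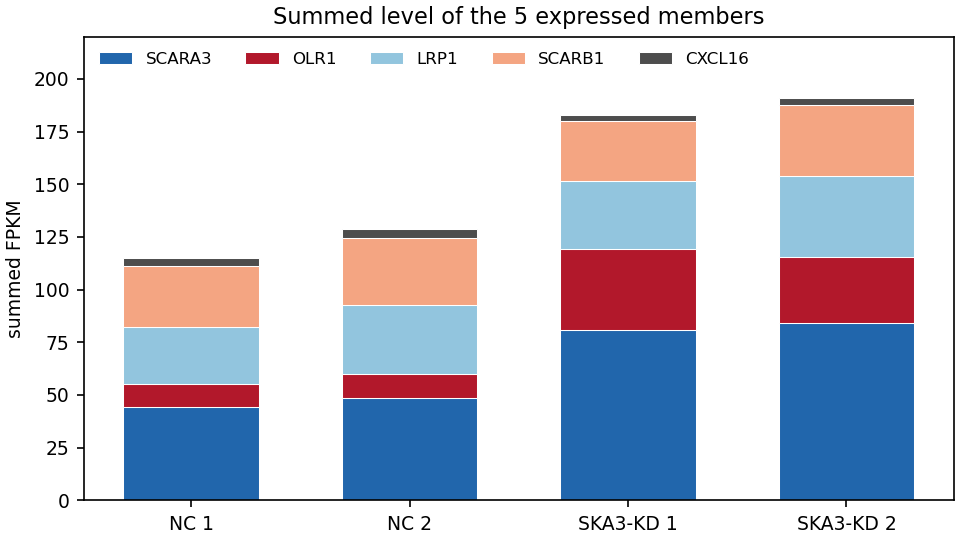
Stacked bars of FPKM for the 5 expressed members in each of the 4 libraries, from a base of 0. The sum of all 8 members is 114.9 and 128.8 FPKM in NC and 182.9 and 190.9 FPKM in SKA3-KD, and the SCARA3 (blue) and OLR1 (red) segments are the ones that differ most between the groups.

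By position in GENCODE 29 (GRCh38), OLR1 (ENSG00000173391) lies on chromosome 12 from 10158301 to 10172138 on the minus strand, among genes of other C-type lectin-like receptors of natural killer and myeloid cells. SCARB1 and LRP1 are also on chromosome 12, far from it. The deposited values name hg19 as their build and carry no coordinates, so these positions were looked up by identifier. Of the 6 genes in the table on each side of OLR1, 12 in all, 4 reached a mean of 1 FPKM, and 0 were past the threshold in either direction (limma with Benjamini-Hochberg adjustment), the lowest of their adjusted p-values being 0.664.

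The lectin-like receptor gene next to OLR1, CLEC7A, which encodes the beta-glucan receptor dectin-1, had 0 and 1 reads in NC and 3 and 2 reads in SKA3-KD. CLEC1A, CLEC12A and CLEC2A were listed at 0 in every library. On the other side, TMEM52B, a transmembrane protein gene, was at 1.80 and 1.72 FPKM in NC and at 1.94 and 1.70 FPKM in SKA3-KD. GABARAPL1, an autophagy gene of the ATG8 family, was at 24.5 and 23.2 FPKM in NC and at 23.7 and 22.4 FPKM in SKA3-KD, with a log2 fold change of -0.05. OLR1 had been chosen for its rise. Of the 4 neighbours tested 0 were past the threshold, beside 12.3% of all genes tested, and the other 8 were not tested. Among those 8, EIF2S3B was at 0.517 and 0.366 FPKM in NC and at 0.770 and 1.05 FPKM in SKA3-KD. These values rest on 15, 8, 19 and 30 reads.

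**Figure D4:**
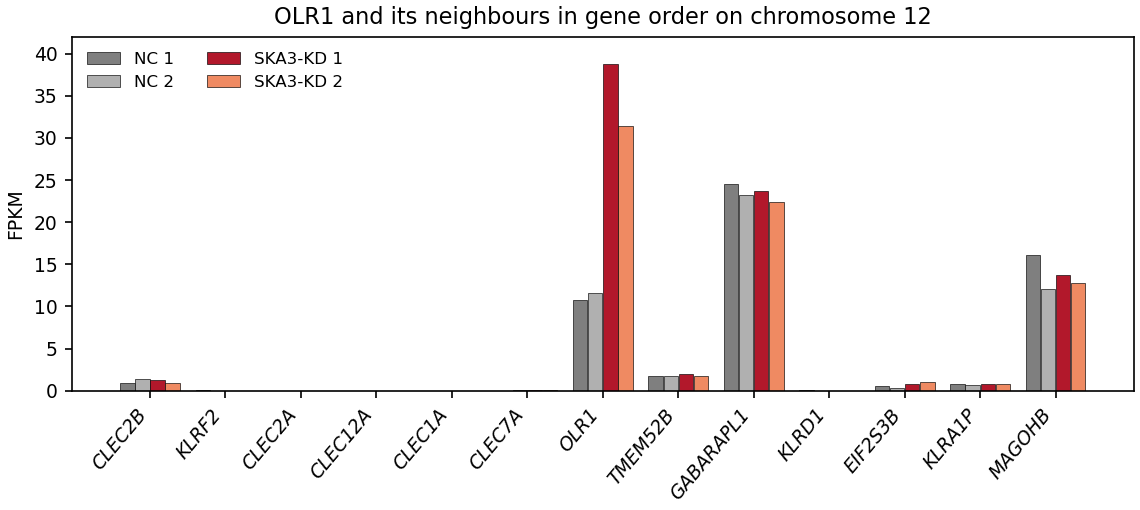
FPKM in each library for OLR1 and the 6 genes on each side of it, in their order on chromosome 12, with NC in grey and SKA3-KD in red and orange. OLR1 stands apart between the groups, GABARAPL1 (22.4 to 24.5 FPKM) and MAGOHB (12.03 to 16.1 FPKM) show no step between them, and the lectin-like receptor genes to the left are at or near 0 apart from CLEC2B.

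The genes whose pattern over the 4 libraries lay closest to that of OLR1 were found by the Euclidean distance between their log2(FPKM + 1) values less the NC mean. On this scale OLR1 itself lay 2.22 from a gene with no change. AXL was at a distance of 0.308, with 14.8 and 16.7 FPKM in NC and 43.3 and 44.2 FPKM in SKA3-KD. MZT1 was at 0.427, with 16.5 and 12.4 FPKM in NC and 42.8 and 35.0 FPKM in SKA3-KD. The other 3 of the closest 5 were RNAs of few reads. They were ENSG00000253047, a snoRNA with 0, 0, 3 and 3 reads (0.240), ENSG00000233052, a sense-intronic RNA with 2, 1, 12 and 9 reads (0.312), and ENSG00000252202, a Y_RNA with 1, 1, 4 and 4 reads (0.444). In all 5, both SKA3-KD libraries were above both NC libraries. This follows from picking genes close to OLR1, so nothing is read from it.

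The libraries were read for markers of the cells in which these receptors are best known. Of 10 macrophage markers, 7 were in the table, each under a mean of 1 FPKM. They summed to between 0.811 and 1.06 FPKM in NC and between 0.761 and 0.988 FPKM in SKA3-KD. The largest parts were CSF1R, at 0.412 to 0.568 FPKM over the libraries, and CD14, at 0.225 to 0.365 FPKM. LYZ was listed at 0 in every library and PTPRC in 3. Of 8 endothelial markers, 5 were in the table and summed to between 0.559 and 0.776 FPKM in NC and between 0.325 and 0.479 FPKM in SKA3-KD. Both sums were far below the OLR1 level in any library. Which cells held the OLR1 RNA was not tested.

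Of the 3 fibroblast markers tested 1 was lower past the threshold, and of the 5 epithelial markers tested 1 was higher and 1 lower. Over all genes tested 6.16% were higher and 6.11% lower, and nothing is read from these counts. Of 8 fibroblast markers, 7 were in the table and summed to 15.4 and 15.8 FPKM in NC and to 8.89 and 9.59 FPKM in SKA3-KD. DCN, the proteoglycan decorin, fell from 8.40 and 8.36 FPKM to 2.48 and 2.35 FPKM (log2 fold change -1.46, adjusted p = 0.0065 by limma), while COL1A1 and PDGFRB were not past the threshold and COL1A2 was listed at 0 in 3 libraries. Of 12 epithelial markers, 11 were in the table, the simple-epithelial keratins KRT8 and KRT18 among them. They summed to between 660 and 670 FPKM in NC and between 647 and 680 FPKM in SKA3-KD. Most of each sum was KRT8 (430 to 453 FPKM), so the sums do not measure squamous character. They overlapped between the groups, while KRT17 fell by 0.53 and KRT18 rose by 0.30 on the log2 scale. Their part in the differences of the receptors was not tested.

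Lists of genes that work beside the 8 receptors were read from the same fit, and 18 of their genes were past the threshold. The lists were chosen, like the members, with results of these libraries known. Each count below stands beside the share over all genes tested, 12.3% past the threshold, 6.16% higher and 6.11% lower. Nothing is read from the counts themselves. All 18 were also past the threshold with a pseudocount of 0.1, with median-of-ratios or quantile scaling, and in the limma voom fit to recovered reads. Without the mean-variance trend 12 of the 18 were past it (FYN, HSPA1A, LIPA, NPC2, SYNJ2BP and TNFAIP3 were not). Without the filter on low genes 2 of the 18 were past it (NCEH1 and FABP3), and with 1 library left out 0 (without NC 1), 3 (without NC 2), 3 (without SKA3-KD 1) and 3 (without SKA3-KD 2), each of the 18 keeping its direction. Every adjusted p that follows is from limma with Benjamini-Hochberg adjustment over all 12645 genes tested.

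Of 20 other scavenger receptors listed, 15 were in the table, and COLEC12, CD163, MRC1, LRP2 and MARCO were not analysed here. In 10 the mean was under 1 FPKM, among them CD68, STAB1 and STAB2. Of the 5 tested, 0 rose and 1 fell, with a median log2 fold change of -0.02 (-0.066 to 0.0073 with 1 library left out). SCARA5, a class A receptor that takes up ferritin, was at 11.6 and 12.1 FPKM in NC and at 7.69 and 6.997 FPKM in SKA3-KD (-0.62, SE 0.07, adjusted p = 0.0155). It thus fell while SCARA3, of the same class, was higher, and its call was lost when any 1 library was left out (log2 fold changes from -0.68 to -0.56).

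The most abundant of these receptors lay at like levels in both groups. LGALS3, the lectin galectin-3, which binds advanced glycation end products, was at 70.9 and 66.4 FPKM in NC and at 68.3 and 67.5 FPKM in SKA3-KD. SCARB2, a lysosomal class B protein, was at 22.7 and 20.7 FPKM in NC and at 21.6 and 20.03 FPKM in SKA3-KD. CD44, the hyaluronan receptor, was at 18.0 and 19.03 FPKM in NC and at 19.3 and 18.9 FPKM in SKA3-KD. None of the 3 was past the threshold, and the groups of each overlapped.

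Lipoprotein receptors related to LRP1, sorting receptors and the chaperone LRPAP1 made a list of 12 reported genes, all tested. Of these 1 rose and 0 fell (median 0.08). SORT1, the sorting receptor sortilin, was at 6.29 and 5.77 FPKM in NC and at 9.20 and 9.59 FPKM in SKA3-KD (0.56, SE 0.07, adjusted p = 0.0189). Its call was lost when any 1 library was left out (0.51 to 0.62). LRP5, a Wnt co-receptor and the most abundant of the 12, was at 22.3, 25.9, 25.4 and 27.6 FPKM (adjusted p = 0.38), in the order NC 1, NC 2, SKA3-KD 1 and SKA3-KD 2. In the same order LRP11 was at 19.03, 16.9, 18.4 and 18.6 FPKM (adjusted p = 0.743), and LRP8, a receptor for reelin and apolipoprotein E, was at 11.3, 11.96, 12.3 and 12.6 FPKM (adjusted p = 0.399). None of these 3 was past the threshold.

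Proteases that shed the receptors, adaptors and signalling partners made a list of 17 genes, of which 14 were tested, 1 rose and 2 fell (median 0.10). TRAF3IP2, the adaptor Act1 of the interleukin-17 receptor and a reported partner of LOX-1, was at 2.81 and 3.23 FPKM in NC and at 1.14 and 0.932 FPKM in SKA3-KD (-0.98, SE 0.13, adjusted p = 0.0196). On recovered reads, a scale without the pseudocount of 1, its log2 fold change was -1.54. SYNJ2BP, a PDZ protein of the outer mitochondrial membrane, was at 11.2 FPKM in each NC library and at 7.78 and 8.29 FPKM in SKA3-KD (-0.43, adjusted p = 0.0251). FYN, a Src-family kinase, was at 2.88 and 2.81 FPKM in NC and at 4.03 and 4.14 FPKM in SKA3-KD (0.40, adjusted p = 0.0426). All 3 calls were lost when any 1 library was left out.

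The sheddases ADAM10 (0.17, adjusted p = 0.199) and ADAM17 (-0.13, adjusted p = 0.264), which release ectodomains such as that of CXCL16, were not past the threshold. The small GTPase RHOA was at 219 to 231 FPKM in NC and at 239 to 248 FPKM in SKA3-KD (0.11, adjusted p = 0.237). RAC1, of the same family, was at 100.5 to 103 FPKM in NC and at 106 to 111 FPKM in SKA3-KD (0.09, adjusted p = 0.312), and CYBA, the p22phox subunit of NADPH oxidase, was at 87.9 to 98.7 FPKM in NC and at 72.8 to 81.0 FPKM in SKA3-KD (-0.27, adjusted p = 0.107). CXCR6, the receptor for CXCL16, had 2 reads and 1 read in NC and was listed at 0 in SKA3-KD.

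Among 12 genes for ligands of the receptors, 7 were tested, 1 rose and 0 fell (median 0.13). HSPA1A, an inducible HSP70 chaperone, was at 46.7 and 42.4 FPKM in NC and at 61.3 and 62.8 FPKM in SKA3-KD (0.47, adjusted p = 0.0223). It shares nearly all its sequence with HSPA1B, so that reads of the pair could be split in the counting and its value is uncertain, and its call was lost when any 1 library was left out (0.40 to 0.54). CALR, the chaperone calreticulin and an LRP1 ligand at the cell surface, was at 477 and 484 FPKM in NC and at 569 and 552 FPKM in SKA3-KD (0.22, adjusted p = 0.0523). The annexins ANXA5 (-0.04, adjusted p = 0.689) and ANXA1 (0.13, adjusted p = 0.327), both phospholipid-binding proteins, were not past the threshold, and the apolipoprotein genes APOE and APOA1 were under a mean of 1 FPKM.

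Of 23 genes that act on lipid once it is inside the cell, 21 were in the table (FABP4 and CES1 were not analysed here) and 19 were tested, of which 2 rose, 7 fell and 10 were not past the threshold, beside 6.16% higher and 6.11% lower over all genes tested. The median log2 fold change was -0.15, beside 0.01 over all genes tested. It was -0.071 without NC 2 and -0.096 with the filter at a mean of 5 FPKM. Without NC 1, NC 2, SKA3-KD 1 or SKA3-KD 2, in turn, 0, 3, 1 and 2 of these 9 calls were kept. The members that moved act at different steps, and they are given below by step.

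In cholesterol ester turnover, SOAT1, which esterifies cholesterol in the endoplasmic reticulum, fell from 69.6 and 64.1 FPKM in NC to 43.5 and 44.8 FPKM in SKA3-KD (-0.59, SE 0.07, adjusted p = 0.0142). NCEH1, which hydrolyses cholesterol esters at neutral pH, rose from 10.1 and 8.93 FPKM to 19.8 and 18.9 FPKM (0.96, SE 0.08, adjusted p = 0.00932). The enzyme that makes the esters was thus lower and this hydrolase higher. LIPA, the lysosomal acid lipase that splits the esters of incoming lipoproteins, fell from 14.3 and 14.4 FPKM to 10.7 and 10.2 FPKM (-0.42, adjusted p = 0.0237), and NPC2, which carries cholesterol within the lysosome, fell from 11.1 FPKM in each NC library to 8.43 and 8.67 FPKM (-0.34, adjusted p = 0.035). Its partner NPC1 was not past the threshold (0.07, adjusted p = 0.585).

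Cholesterol export and its regulators did not move as one. ABCG1, a transporter that passes cholesterol to high-density lipoprotein, rose from 3.19 and 3.02 FPKM to 6.32 and 6.12 FPKM (0.81, SE 0.08, adjusted p = 0.0113). NR1H3, the oxysterol receptor LXR-alpha, which is known to activate ABCG1, fell from 12.4 and 13.5 FPKM to 8.75 and 8.10 FPKM (-0.56, adjusted p = 0.0205). The transporter was higher while this activator was lower. The transporter ABCA1, another known target of the receptor, was at 0.493 to 0.560 FPKM over the 4 libraries and was not tested.

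In fatty acid handling, FABP3, an intracellular fatty acid carrier, fell from 52.6 and 48.1 FPKM to 23.0 and 20.8 FPKM (-1.17, SE 0.08, adjusted p = 0.00806). ACSL1, which activates long-chain fatty acids, fell from 4.24 and 4.01 FPKM to 2.24 and 1.91 FPKM (-0.74, adjusted p = 0.0207). PPARA, a nuclear receptor for fatty acids, fell from 2.74 and 2.39 FPKM to 1.04 and 1.07 FPKM (-0.79, adjusted p = 0.0262, and -1.28 on recovered reads). In each of the 3, which are named because they were past the threshold, both SKA3-KD libraries lay below both NC libraries. So they did in 29.2% of all genes tested. Of the same families, ACSL3 (0.12), ACSL4 (-0.04), PPARD (0.13) and FABP5 (-0.15) were not past the threshold. ACSL3 and ACSL4, with means of 31.7 and 18.1 FPKM in NC, were more abundant than ACSL1. PPARG, a related receptor known to induce CD36, was at 1.22, 1.26, 2.16 and 1.55 FPKM (0.34, adjusted p = 0.217), and the lipid droplet protein PLIN3, the most abundant gene of the list, was at 64.9, 71.1, 71.4 and 77.5 FPKM (0.13, adjusted p = 0.307), both in the order NC 1, NC 2, SKA3-KD 1 and SKA3-KD 2.

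Transcription factors and inhibitors known to act on OLR1 or on NF-kB made a list of 16, of which AGTR1 was not analysed here. All 15 others were tested, 1 rose and 2 fell (median 0.06, and 0.0034 without SKA3-KD 1). FOSL1, an AP-1 subunit, rose from 5.40 and 5.70 FPKM to 13.7 and 11.4 FPKM (1.05, SE 0.10, adjusted p = 0.0115). Whether FOSL1 has a part in the OLR1 difference was not tested. NFKBIA, the inhibitor of NF-kB that is itself induced by it, fell from 13.9 and 14.8 FPKM to 7.99 and 7.18 FPKM (-0.84, SE 0.08, adjusted p = 0.0112), and TNFAIP3, another inhibitor of that pathway, fell from 5.99 and 6.65 FPKM to 4.58 and 4.36 FPKM (-0.42, adjusted p = 0.0393). FOSL1 was not past the threshold without NC 1 (1.01) or NC 2 (1.08), NFKBIA was past it without SKA3-KD 1 (-0.91) and not without any other library (-0.88 to -0.77), and the call of TNFAIP3 was lost when any 1 library was left out (-0.48 to -0.35).

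Of the NF-kB subunits, RELA (0.12, adjusted p = 0.24), NFKB1 (0.00, adjusted p = 0.996) and RELB (0.24, adjusted p = 0.0945) were not past the threshold. NFKB2 was at 27.4 and 32.5 FPKM in NC and at 34.7 and 39.8 FPKM in SKA3-KD (0.31, adjusted p = 0.139). Of the other AP-1 genes, JUND was at 107 and 140.3 FPKM in NC and at 88.5 and 102 FPKM in SKA3-KD (-0.36, adjusted p = 0.17), FOSL2 was at 47.9 and 54.5 FPKM in NC and at 37.6 and 43.0 FPKM in SKA3-KD (-0.34, adjusted p = 0.0881), and JUN was at 8.83 and 12.7 FPKM in NC and at 14.5 and 16.6 FPKM in SKA3-KD (0.51, adjusted p = 0.124). None of these 7 genes was past the threshold, nor was the AP-1 gene FOS (-0.16, adjusted p = 0.342), whose groups overlapped.

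**Figure D5:**
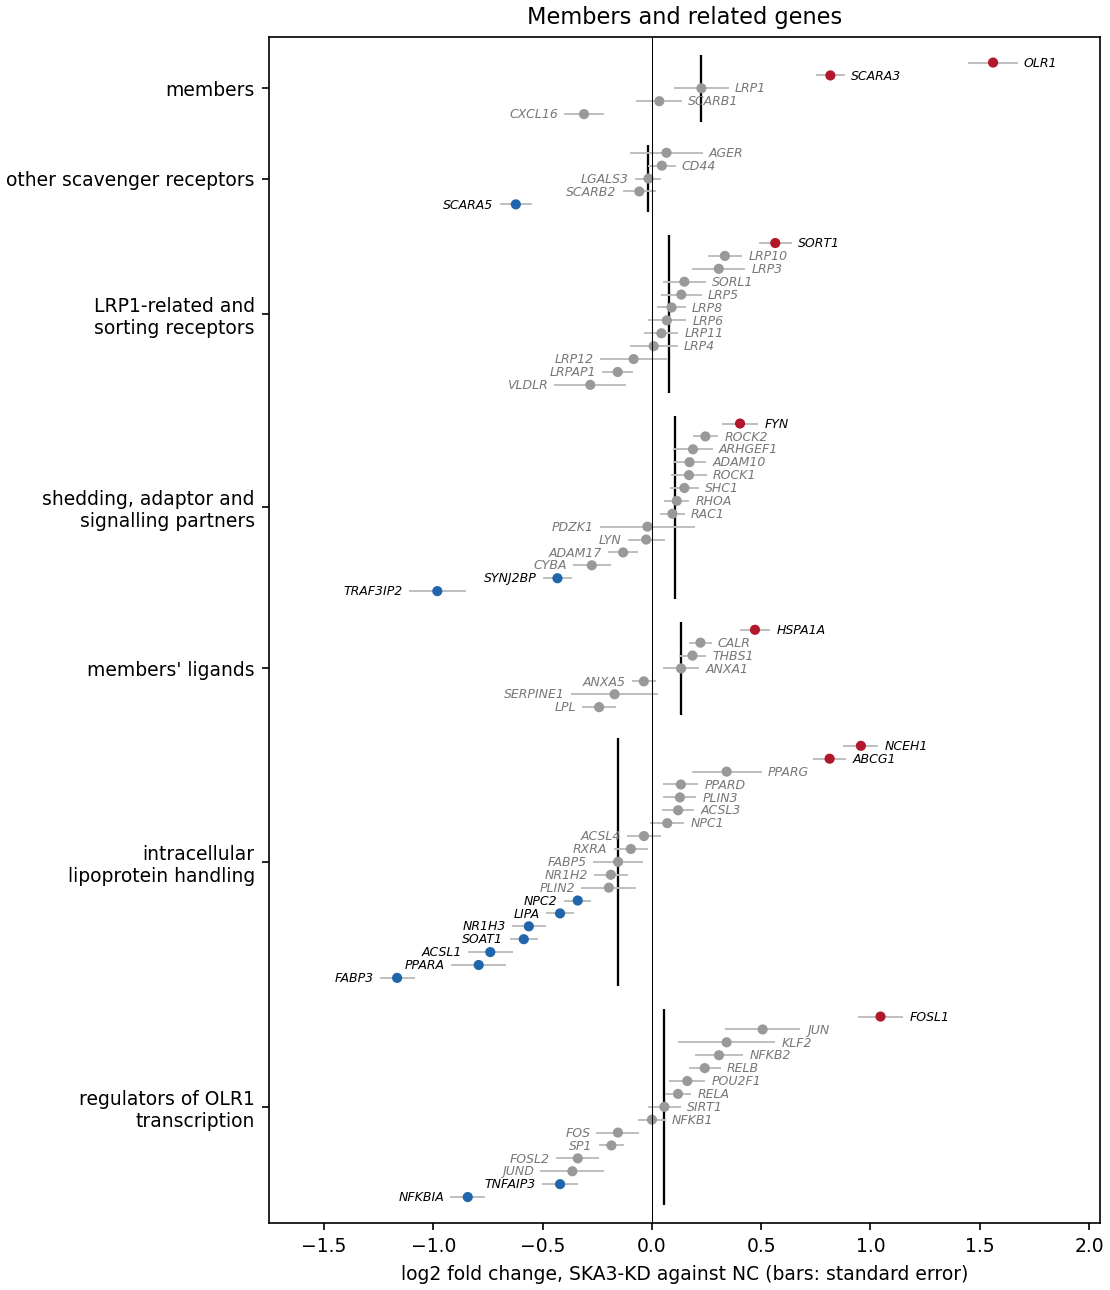
Log2 fold change of SKA3-KD against NC (horizontal, bars 1 standard error) for the 5 tested members and the tested genes of each list, with genes higher past the threshold in red, lower in blue and the others in grey, and a vertical bar at each list's median. OLR1 (1.56) is the rightmost point. The list of intracellular lipoprotein handling, with 19 genes tested, has 7 blue and 2 red points. The other lists, with 5 to 15 genes tested, have at most 3 coloured points each. Over all genes tested 12.3% were past the threshold, and nothing is read from these counts.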

How the data were processed

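RNA of 4 TU-177 libraries (2 NC, 2 SKA3-KD) was measured by RNA sequencing, and groups and replicate numbers were taken from the sample labels. The authors deposited FPKM values per gene, without counts. The submitters' processing notes name HISAT2, Bowtie2 2.2.8, StringTie 1.3.1, Cuffdiff 2.1.1 and the build hg19, with no role or order. Symbols and positions came from GENCODE 29 (GRCh38) by Ensembl identifier (27199 of 28729 genes had a GENCODE length). Whole reads were recovered from the FPKM steps for 99.989% of the 26504 genes above 0, within 0.01 of a whole number, 68.133% directly. For the others among them the smallest whole numbers in the same proportions were taken, which may be too low. Library sizes were inferred by taking the commonest product of FPKM and length as 1 read. The recovered reads summed to between 102.167% and 103.776% of these sizes.

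SKA3-KD was compared with NC by limma 3.58.1 in R 4.3.3 (lmFit, eBayes with trend) on log2(FPKM + 1), for genes with a mean of at least 1 FPKM, with Benjamini-Hochberg adjustment and a threshold of 0.05. With 2 against 2 libraries an exact permutation test cannot give a p below 0.333, so none was run. On simulated data for this comparison, with 200 of 12440 genes changed 2-fold, 152 were called, with 11 false calls. On the same simulation limma voom called 199 of the 200, with 10 false calls. The changed genes were drawn only from genes of many reads, at a fixed dispersion, so these figures do not cover low genes. The alternatives were another pseudocount, other filters and scalings, no trend, robust eBayes, a replicate block and each library left out. A limma voom fit to the recovered reads was added after seeing the data. Replicates of a group differed by more than sampling noise (chi-square per degree of freedom 3.744 in NC and 3.718 in SKA3-KD). The genes named are all 8 members, list genes past the threshold, the 3 most abundant genes of each list, SKA3, the 5 genes nearest to OLR1 in pattern and any of its neighbours past the threshold. Further genes of the lists, and the cell type markers, were named after their values were seen. The result of 1 list gene is not reported here. The members and lists were chosen with earlier results of these data known.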

Additional observations from a re-analysis of the deposited data

How the results depend on the processing

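In 2 libraries a group, the number of calls depended on the settings. The 779 higher and 772 lower genes became 48 and 81 without a filter on low values (4777 genes at an unadjusted p under 0.05), 312 and 381 without the mean-variance trend, and 1760 and 1561 by limma voom on recovered reads. With 1 library left out they ranged from 0 to 82 higher and from 0 to 131 lower. The 0 came without NC 1, where limma gave 3113 genes at an unadjusted p under 0.05, 1644 of them higher. The log2 fold change of OLR1 was 1.55 to 1.64 over 9 alternatives with all 4 libraries, each past the threshold, and 1.41 to 1.71 with 1 library left out. OLR1 was chosen for its rise in these same libraries, so its calls in these refits lend it no support. SCARA3 gave 0.79 to 0.83 and 0.75 to 0.88, LRP1 0.21 to 0.24 and 0.09 to 0.36, and CXCL16 -0.39 to -0.29 and -0.37 to -0.25. SCARB1 turned below 0 without NC 1 (-0.03) and without SKA3-KD 2 (-0.090), within -0.090 to 0.16 in all. CXCL16 was not tested with the filter at a mean of 5 FPKM. LRP1 was past the threshold by limma voom (0.24) and with the replicate block (0.23). Of the scalings, median-of-ratios moved the median of all genes most, by -0.01. The causes were not tested. Depth limits CD36, SCARF1 and MSR1, which had at most 6 reads in a library.

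The labels give the libraries replicate numbers and do not say that a number marks a shared batch or culture. The deviations of same-numbered libraries correlated at 0.09733 over 12645 genes, which are not independent replicates, so whether the numbers pair the libraries is not known. With the replicate block as a term there were 1002 higher and 965 lower genes. OLR1 and SCARA3 stayed past the threshold, from which nothing is read, since the rule used this contrast. Of the 18 list genes 16 stayed past it, and FYN and TNFAIP3 did not.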
